A study of Mus musculus with 9 samples.

Results

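The mouse miRNAs numbered miR-297, miR-466, miR-467 and miR-669 were measured in RNA of isolated glomeruli with 72 of the 1135 probes of a single-colour array. They were chosen by name alone: a probe belonged if any mouse miRNA in its name carried one of these 4 numbers, with any letter, arm or star. By number, 5 probes were for miR-297, 26 for miR-466, 13 for miR-467 and 27 for miR-669, and 1 probe named both miR-466m-5p and miR-669m-5p. The glomeruli were of female, untreated mice in 3 groups of 3, with an array for each mouse: late GN (B6.MRLc1, 14 months old), early GN (B6.MRLc1, 9 months old) and control (healthy C57BL/6, 9 months old). B6.MRLc1 mice have the genome of C57BL/6 apart from the distal end of chromosome 1, which was bred in from the lupus-prone strain MRL/MpJ, and autoimmune glomerulonephritis (GN) develops in them. Stage and age cannot be told apart in late GN against control, since the arrays hold no control of 14 months. Groups follow the sample titles, because the deposited strain entry for early GN names C57BL/6 and the series text has the ages of the GN stages the other way round.

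Most of these miRNAs come from 1 large cluster of repeated hairpins in an intron of Sfmbt2, a Polycomb group gene that is imprinted and expressed from the paternal allele in the placenta. The cluster is found in rodents and is known for its role in placental growth. A miRNA pairs with target messages mainly through its seed, the bases near its 5′ end, and a star marks the less abundant strand of a hairpin in the older naming. In RefSeq on GRCm38.p6, 72 hairpins matching the probe names lay within Sfmbt2 (chr2:10370440-10595253), in a stretch of 51617 bases at chr2:10466663-10518279. A further 10 matching hairpins lay on other chromosomes. Of the 72 probes, 59 matched hairpins in Sfmbt2 only, 10 matched hairpins elsewhere only, 2 (miR-297a and the joined probe for miR-297b-3p, miR-297a* and miR-297c*) matched both and 1 (miR-297a-5*) was not placed. The bare name miR-466f was placed at Mir466f-4 on chromosome 13.

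Mature sequences were found in the RefSeq table for 8 of the 81 names on these probes, and all 8 belong to hairpins outside Sfmbt2. They are shown because they set out the repeated letters of these 8 and because results below turn on miR-466j, miR-466i-3p and miR-467h. Whether the members in Sfmbt2 share these letters could not be seen here. Capitals mark the seed, bases 2 to 8. The UG-rich members were these 4.
mmu-miR-466j: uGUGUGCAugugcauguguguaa
mmu-miR-466k: uGUGUGUGuacauguacauguga
mmu-miR-467h: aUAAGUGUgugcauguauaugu
mmu-miR-669n: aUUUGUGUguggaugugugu
The CA-rich members were the other 4.
mmu-miR-466i-3p: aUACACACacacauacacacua
mmu-miR-466q: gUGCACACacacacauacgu
mmu-miR-467f: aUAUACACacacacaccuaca
mmu-miR-467g: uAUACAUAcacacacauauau
No 2 of these 8 shared a seed, although the letters around the seed are much alike. UGUGUG or GUGUGU occurred in 4 of the 8 and ACACAC or CACACA in the other 4, against 49 of all 1674 distinct mature sequences of the table (2.93%) with either. They lie at chr10:60960802-60960824 (+, miR-466j), chr3:85467396-85467418 (+, miR-466k), chr9:115381898-115381919 (+, miR-467h), chr3:115979905-115979924 (+, miR-669n), chr13:17747552-17747573 (+, miR-466i-3p), chr3:28419988-28420007 (+, miR-466q), chr11:69635419-69635439 (-, miR-467f) and chr5:34732872-34732892 (-, miR-467g). The scanner files hold no probe sequences, so signal that near-identical members share on the array could not be divided among them, and each value below is that of a probe.

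The normalized table lists a value for a probe on an array or leaves it blank, and the members were mostly dim and often blank. The values are fluorescence intensity, scaled by the authors with 1 factor per array, which puts the median of what an array lists at 25. Of the 72 members, 14 were listed on all 9 arrays (19.4%), 44 on some and 14 on none, while 411 of all 1135 probes were listed on all 9 (36.2%). Of the 14 listed throughout, 10 were miR-466 probes, 3 were miR-669 probes and 1 was the joined miR-466m-5p and miR-669m-5p probe. No miR-297 or miR-467 probe was listed on all 9 arrays. The 14 that were listed on none, 6 of them miR-466, 2 miR-467 and 6 miR-669 probes, read from -2.94 to 2.18 blank SD around the mean of the blank spots (median -0.45). Of the 311 listed member values, 279 lay under 10 blank SD above the blank mean.

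**Figure D1:**
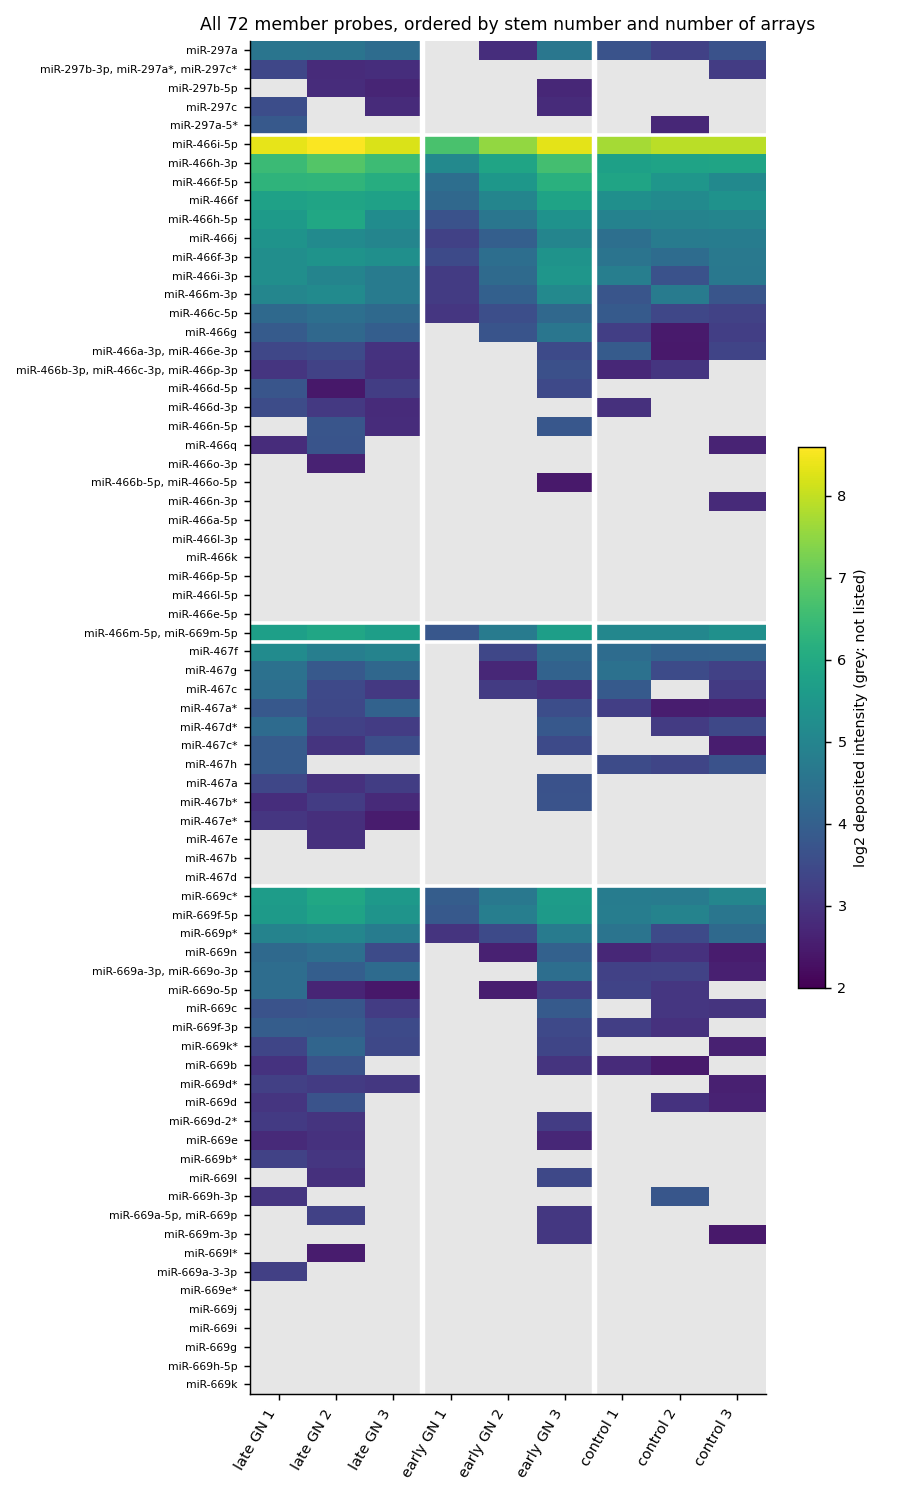
Log2 deposited intensity of all 72 member probes (rows, by stem number and then by number of arrays) on the 9 arrays (columns: late GN, early GN, control), with grey for values that were not listed. The late GN columns and early GN array 3 hold the most coloured cells, early GN array 1 holds 14, and miR-466i-5p is the brightest row.

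More members were listed in late GN than in control. The late GN arrays listed 48, 50 and 40 members, the early GN arrays 14, 21 and 43, and the control arrays 29, 32 and 34. Every late GN array therefore listed more members than any control array, and early GN held both the array with the fewest members and an array within the late GN range. All probes moved in the same order, with 755, 720 and 693 listed on the late GN arrays, 428, 498 and 738 on the early GN arrays and 595, 588 and 589 on the control arrays. As a share, members reached 55.6 to 69.4% in late GN, 19.4 to 59.7% in early GN and 40.3 to 47.2% in control, and all probes 61.1 to 66.5%, 37.7 to 65.0% and 51.8 to 52.4%. Virus-encoded probes, which are for miRNAs of murine herpesviruses, gave 53.8 to 61.5% in late GN, 33.3 to 53.8% in early GN and 35.9 to 41.0% in control. The order of late GN and control in these counts was thus shared with the whole array and with the virus-encoded probes. No test was made of the counts.

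The lists depend on a detection rule that is not stated, so the scanner signal was also set against fixed limits. Above the blank mean plus 2 SD stood 30, 32 and 31 members on the late GN arrays, 12, 15 and 24 on the early GN arrays and 22, 19 and 21 on the control arrays. Above the blank mean plus 5 SD stood 14, 14 and 16 in late GN, 3, 8 and 11 in early GN and 6, 7 and 9 in control. Late GN and control did not overlap under either limit, and early GN array 3 passed all controls under both. For all probes, 48.9 to 52.0% in late GN, 30.1 to 49.5% in early GN and 39.9 to 41.9% in control stood above the 2 SD limit. Above the 5 SD limit these shares were 31.5 to 32.6%, 20.9 to 29.7% and 24.8 to 26.0% in the same order, so late GN and control did not overlap over all probes either.

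**Figure D2:**
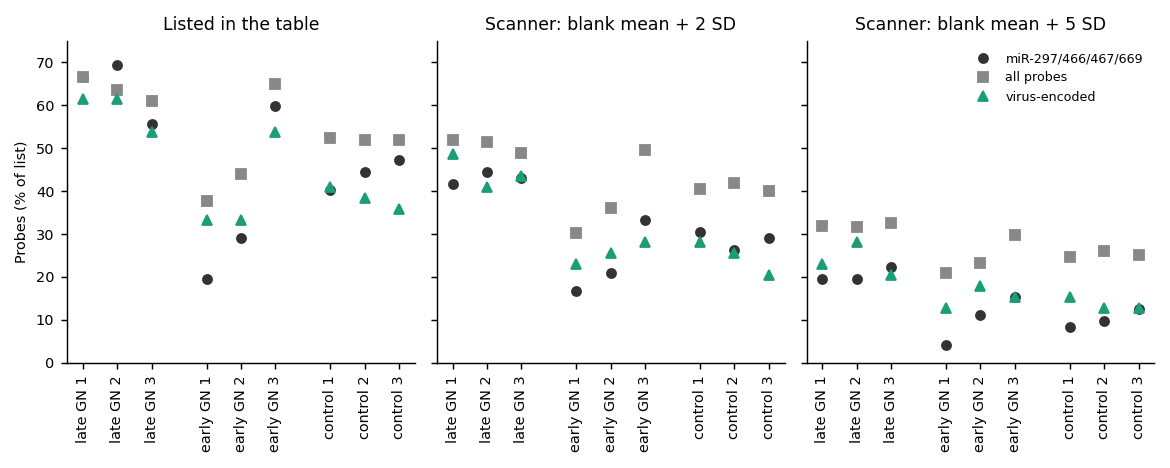
Share of probes (%) counted as present on each array, for the 72 members (circles), all 1135 probes (squares) and the 39 virus-encoded probes (triangles), by the deposited list (left) and by 2 limits on the scanner signal. In every panel the late GN circles stand above the control circles and early GN spans a wide range.

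Probe by probe, 28 of 72 members (38.9%) were listed on more late GN than control arrays and 3 on fewer. Over all probes this was 26.4% more and 3.26% fewer, and over the virus-encoded probes 35.9% more and 0% fewer. Listed on all 3 late GN arrays and on no control array were miR-466d-5p, miR-467a, miR-467b* and miR-467e*, against 2.38% of all probes. miR-466d-5p had 13.4, 5.36 and 9.19 in late GN, was listed at 11.1 on early GN array 3 only, and was blank in control. miR-467a had 10.6, 7.73 and 9.24 in late GN and 12.8 on early GN array 3. miR-467b* had 7.23, 8.99 and 6.90 in late GN and 13.0 on early GN array 3. miR-467e* had 8.25, 7.37 and 5.66 in late GN and was blank on the other 6 arrays. All of these values are near the lower end of what the arrays list, which is 4.41 to 6.48 by array, so no fold change is given. Listing did not always follow the scanner signal. Less the blank mean, miR-466d-5p read 7.52, -0.39 and 7.23 in late GN and 2.33, 3.19 and 1.94 in control. For miR-467a these were 5.52, 2.61 and 8.23 against 3.33, 0.19 and 2.94. For miR-467b* they were 0.52, 1.61 and 2.23 against -1.67, -1.81 and 0.94. Only miR-467e* did not overlap, at 2.52, 7.61 and 6.23 against 1.33, 0.19 and -2.06.

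In early GN, 11 members (15.3%) were listed on more arrays than in control and 22 (30.6%) on fewer, against 11.1% and 17.0% of all probes. miR-467h was the 1 member blank on all early GN arrays and listed on all control arrays, at 11.4, 10.3 and 12.8 in control, and it was listed once in late GN, at 14.9 on array 1. Over all probes, 0.264% were blank in early GN and listed on all control arrays. Between late GN and early GN, 39 members (54.2%) were listed on more late GN arrays and 2 on fewer, against 34.4% and 3.44% of all probes. The joined probe for miR-297b-3p, miR-297a* and miR-297c*, with miR-466d-3p, miR-467e* and miR-669d*, were listed on all 3 late GN arrays and on no early GN array, against 1.15% of all probes, at 5.66 to 11.6 in late GN.

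The 14 members listed on all 9 arrays carried the comparison of levels, and all 14 were at a higher mean log2 level in late GN than in control. miR-466i-5p, from a hairpin on chromosome 13, was the brightest, with 328, 375 and 301 in late GN, 105, 186 and 322 in early GN and 211, 243 and 240.1 in control. The late GN arrays lay above all control arrays, while the early GN arrays lay on both sides of the controls. miR-466h-3p, from the Sfmbt2 cluster, had 90.4, 114 and 91.7 in late GN, 34.8, 58.0 and 99.4 in early GN and 53.6, 56.5 and 57.6 in control. Late GN and control again did not overlap, and the spread within early GN was wider than the gap between them. miR-669c*, the star strand of an Sfmbt2 hairpin, had 50.3, 61.1 and 46.5 in late GN, 15.4, 25.0 and 50.3 in early GN and 27.1, 27.0 and 32.4 in control. miR-669f-5p, from another hairpin of the cluster, had 48.8, 57.2 and 43.1 in late GN, 14.4, 28.6 and 48.7 in early GN and 27.6, 31.0 and 23.9 in control. In both, the lowest late GN array was above the highest control array, and early GN array 3 was within the late GN range.

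miR-466m-3p had the largest fold change of the members in late GN against control, but its groups overlapped, with 32.5, 35.9 and 26.6 in late GN, 8.81, 16.3 and 34.7 in early GN and 13.5, 26.8 and 13.4 in control. miR-466i-3p, on the other arm of the miR-466i hairpin, overlapped as well, with 38.7, 31.4 and 26.8 in late GN, 8.91, 19.4 and 44.1 in early GN and 28.1, 12.6 and 25.0 in control. The remaining 8 averaged 19.9 to 75.2 in late GN, 13.0 to 46.2 in early GN and 11.7 to 45.9 in control. They were miR-466f-5p, miR-466f, the joined miR-466m-5p and miR-669m-5p probe, miR-466h-5p, miR-466j, miR-466f-3p, miR-669p* and miR-466c-5p, and in each of these 8 the late GN arrays lay above all control arrays.

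**Figure D3:**
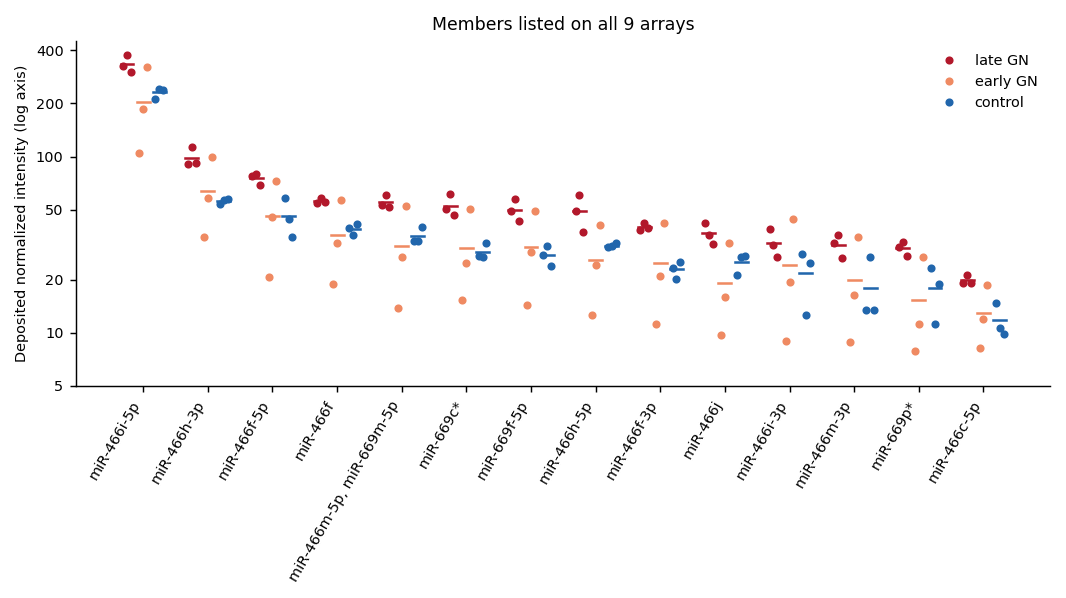
Deposited normalized intensity (log axis) of the 14 members listed on all 9 arrays, with a point per array, 3 arrays per group, and a bar at the group mean (late GN, early GN, control). Late GN points stand above all control points in 12 of the 14, and in each member early GN array 1 is the lowest point of its group.

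For late GN against control, log2 fold changes of the 14 members ran from 0.53 (miR-466i-5p) to 0.89 (miR-466m-3p), with a median of 0.76. None passed in limma, in a fit of all 9 arrays over the 411 probes listed throughout with Benjamini-Hochberg adjustment: 0 were higher and 0 lower, against a background of 3.89% of the 411 higher and 0.243% lower (16 and 1). At an unadjusted p under 0.05, 1 member and 125 of all probes passed in limma. The largest was miR-466m-3p, with a log2 fold change of 0.89 ± 0.44 (SE, n = 3 arrays per group, adjusted p = 0.153), followed by miR-669c* at 0.86 ± 0.44 (adjusted p = 0.166) and miR-669f-5p at 0.85 ± 0.44 (adjusted p = 0.170). The smallest were miR-466i-5p and miR-466f at 0.53 ± 0.44 (adjusted p = 0.387 for both) and miR-466j at 0.54 ± 0.44 (adjusted p = 0.386). By the methods' t-test on the linear values, 11 members were higher unadjusted, against 44.5% of all probes, and 9 after Benjamini-Hochberg, against 38%. By Dunnett's test 0 members and 0 of all probes passed.

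The standard error of 0.44 was the same for every member in every comparison, so it is a pooled spread and not that of a single member. It also holds the spread among the early GN arrays. The median of the 14 members on an array, on the log2 scale, had an SD of 0.25 in late GN, 0.91 in early GN and 0.045 in control. In a fit of late GN and control alone, 13 of the 14 members were higher at an adjusted p under 0.05, and so were 48.7% of the 411 probes, with 17.5% lower. With array weights, which count arrays of wide scatter less, 13 passed as well, and 48.7% of all probes were higher and 19% lower. No late GN array shared a slide with another group, so slide and stage cannot be told apart there, and with slide as a random block 0 members and 0 of all probes passed. Scaling by the spike controls gave 3 of 14 members higher, against 30.9% of all probes, and scaling by the 75th percentile of the probes listed throughout gave 3 of 14, against 24.8%. Without early GN array 1, 3 of 14 were higher, against 31.6% of all probes, and without early GN array 3, 8 of 14, against 41.8%.

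Members were set beside all probes because the whole array shifted. All 14 members were above 0, against 60.3% of the 411 probes, and every late GN array was above every control array in 12 of the 14, against a background of 49.1%. The median log2 fold change of the 411 probes was 0.45, so the members stood 0.32 above it. Fold change also moved with brightness. The 206 dimmer probes, with 12 of the 14 members among them, had a median of 0.70 in late GN against control, and the 205 brighter ones a median of -0.11. The median of the members, 0.76, was thus close to that of dim probes in general. Of the dimmer probes 73.3% were above 0, and of the brighter ones 47.3%. Every late GN array was above every control array in 59.2% of the dimmer and 39.0% of the brighter probes. The 10 virus-encoded probes listed on all arrays had a median of 0.99, with 2 of 10 passing.

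With the arrays brought to the same median over the 411 probes (a common median), all 14 members were still at a higher mean level in late GN than in control, against 53.0% of all probes. Their log2 fold changes were 0.21 to 0.58, with a median of 0.45 (all probes 0.13). The 206 dimmer probes had a median of 0.39 under this scaling, and 65.5% of them were above 0. Under this scaling 5 members were higher at an adjusted p under 0.05 in limma, against a background of 32.1% of the 411 probes higher and 29.9% lower. The share of members that passed was thus near that of all probes. They were miR-669c* (0.55 ± 0.18, adjusted p = 0.0256), miR-466h-3p (0.50 ± 0.18, adjusted p = 0.033), miR-669f-5p (0.54 ± 0.21, adjusted p = 0.0399), miR-466f-3p (0.49 ± 0.19, adjusted p = 0.0428) and miR-466c-5p (0.47 ± 0.19, adjusted p = 0.0486). All 5 come from the Sfmbt2 cluster, as do 10 of the 14 members fitted. Over every alternative run, their adjusted p ran from 0.000367 to 0.487 for miR-669c*, 0.000436 to 0.552 for miR-466h-3p, 0.000545 to 0.476 for miR-669f-5p, 0.000657 to 0.806 for miR-466f-3p and 0.00314 to 0.644 for miR-466c-5p. Late GN arrays were above all control arrays in 8 of 14 members after this scaling, against 36.7% of all probes. A quantity that no scaling touches is the share of the members in the summed intensity of the 411 probes, which was 0.236 to 0.263% in late GN, 0.152 to 0.210% in early GN and 0.153 to 0.164% in control. Late GN did not overlap with control in this share, and early GN covered the control range. The brighter probes set the sum, and they had the lower fold changes given above.

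**Figure D4:**
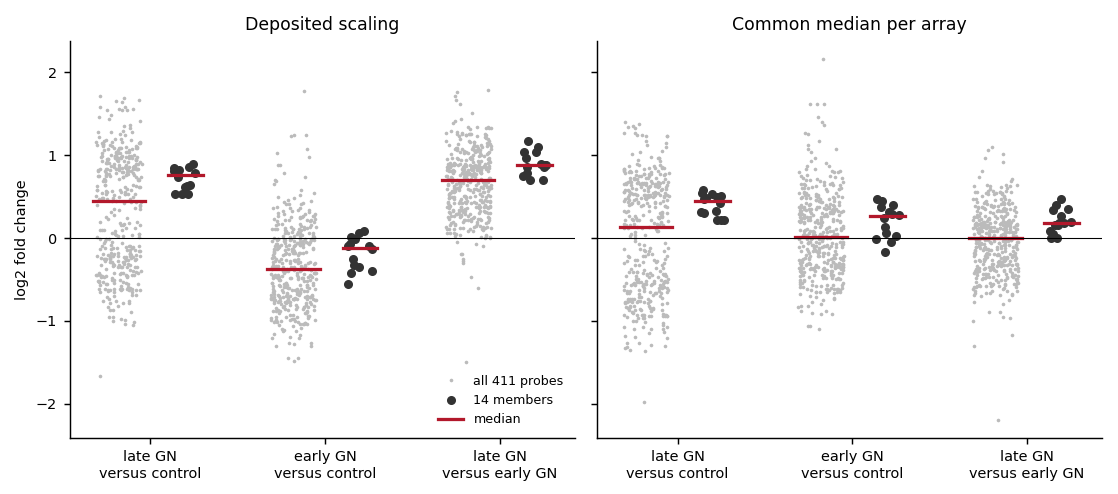
Log2 fold changes of the 14 members (dark) and of all 411 probes (grey) in the 3 comparisons, with the deposited scaling (left) and with a common median per array (right), and a red line at each median. The members lie above the median of all probes in both comparisons of late GN, and in early GN against control 11 lie above it and 3 below. The common median moves members and all probes by the same amount.

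In early GN the members as a group were close to control under the deposited scaling and their direction changed with the scaling. Log2 fold changes ran from -0.56 to 0.086, with a median of -0.12 against -0.38 for all 411 probes, and 3 of 14 members were above 0, against 23.1% of all probes. With a common median they ran from -0.17 to 0.47, with a median of 0.27 against 0.0073, and 11 of 14 were above 0, against 51.1% of all probes. The 206 dimmer probes had a median of -0.30 under the deposited scaling and 0.087 with a common median. In no member did early GN and control arrays stand apart under the deposited scaling, against 1.95% of all probes with every early GN array above and 6.33% with every one below. No member passed in limma in either setting, against backgrounds of 0.243% higher and 0% lower under the deposited scaling and 6.81% higher and 3.89% lower with a common median. At an unadjusted p under 0.05, 0 members and 65 of all probes passed under the deposited scaling, and 2 members and 147 of all probes passed with a common median. By the methods' t-test, unadjusted, 0 members passed, while 3 of the 411 probes were higher and 16 lower. After Benjamini-Hochberg 0 members and 0 of all probes passed that test. The lowest was miR-466j, with a UG-rich seed, at 9.64, 15.9 and 32.1 in early GN and 21.4, 27.0 and 27.3 in control (log2 fold change -0.56 ± 0.44, adjusted p = 0.502). The next were miR-466h-5p at -0.43 ± 0.44 (adjusted p = 0.639) and the joined miR-466m-5p and miR-669m-5p probe at -0.40 ± 0.44 (adjusted p = 0.683). The highest were miR-466c-5p at 0.086 ± 0.44 (adjusted p = 0.960) and miR-466h-3p at 0.066 ± 0.44 (adjusted p = 0.977).

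The early GN arrays differed among themselves more than the groups did. The median of the 14 members was 48.8, 57.7 and 41.0 on the late GN arrays, 13.2, 24.6 and 46.4 on early GN arrays 1, 2 and 3, and 27.8, 28.9 and 29.7 on the control arrays. Under the deposited scaling early GN array 1 was the lowest of all 9 arrays, and early GN array 3 was within the late GN range. The place of array 3 rests in part on its scaling factor, since the factors of early GN arrays 1 to 3 were 1.10, 1.25 and 2.34. Before scaling, the median of all 72 members above the blank mean was -0.32, 0.88 and 3.40 on these arrays. It was 5.52, 4.61 and 5.23 in late GN and 3.33, 2.19 and 1.94 in control. Under the deposited scaling the median of all 411 probes moved with that of the 14 members. It was 68.5, 66.8 and 64.9 in late GN, 27.6, 34.8 and 72.5 in early GN and 54.9, 52.5 and 53.5 in control. Early GN array 1 shared its slide with control array 3, and within that slide all 14 members were lower in early GN, by a median of -1.16 on the log2 scale (all probes -1.01), or -0.20 after a common median (all probes -0.059). Without early GN array 3, 6 of the 14 members were lower in early GN than in control in limma, with a median of -0.61, and 56.4% of all probes were lower. On early GN array 3 alone, which was set apart after the data were seen and is a single array, the median of the members against control was 0.70, and that of all probes 0.51. The direction of the members in early GN thus differed between its arrays.

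Between late GN and early GN, all 14 members were at a higher mean level in late GN, with log2 fold changes of 0.70 to 1.17 and a median of 0.88, and so were 97.1% of all 411 probes, with a median of 0.70. No member passed in limma, against backgrounds of 1.46% higher and 0.243% lower, and at an unadjusted p under 0.05 8 members and 125 of all probes passed. The methods' t-test passed 0 members, before or after adjustment. The largest was miR-669p*, another star strand of the cluster, with 30.8, 32.5 and 27.1 in late GN and 7.89, 11.1 and 26.9 in early GN (1.17 ± 0.44, adjusted p = 0.0903). Its lowest late GN array was just above its highest early GN array. It was followed by miR-466j at 1.09 ± 0.44 (adjusted p = 0.104) and miR-466h-5p at 1.04 ± 0.44 (adjusted p = 0.109). The smallest were miR-466c-5p and miR-466i-3p at 0.70 ± 0.44 (adjusted p = 0.232 for both). Late GN arrays were above all early GN arrays in 2 of 14 members, against a background of 21.4%. With a common median the members' median was 0.18, against -0.0016 for all probes, and 13 of 14 were above 0, against 49.6% of all probes. Every late GN array was then above every early GN array in 3 of 14, against 7.3% of all probes. The 206 dimmer probes were close to the members, with a median of 0.86 under the deposited scaling and 0.165 with a common median. Without early GN array 3, all 14 members passed, as did 91.5% of the 411 probes. With array weights 13 passed, against 65.7% of the 411.

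The members followed each other across arrays. Under the deposited scaling the median Pearson's r over the 91 pairs of the 14 members, on log2 values of the 9 arrays, was 0.92, and over all pairs of the 411 probes it was 0.66. After a common median it was 0.61 for the members (lowest -0.18, highest 0.92) and -0.011 for all pairs. All pairs mix dim and bright probes, whose median fold changes in late GN against control were then 0.39 and -0.42. Pairs of dim probes alone, to which 12 of the 14 members belong, were not taken apart. The arrays share their scaling and their stage in these correlations, and near-identical sequences can share signal, so they are given as a description only.

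Members of the cluster and members encoded elsewhere were compared by their values. The 10 probes of the Sfmbt2 cluster had log2 fold changes of 0.62 to 0.89 in late GN against control (median 0.81), and the 4 probes of other chromosomes, miR-466i-5p, miR-466i-3p, miR-466f and miR-466j, had 0.53 to 0.63 (median 0.53). With a common median these were 0.30 to 0.58 (median 0.49) for the cluster and 0.21 to 0.31 (median 0.22) for the others. The 2 groups of probes overlapped by 1 pair, since miR-466h-5p of the cluster was at 0.62 and miR-466i-3p at 0.63, and each value carries the standard error given above. In early GN against control the cluster had -0.43 to 0.086 (median -0.095) and the others -0.56 to -0.070 (median -0.29). By number, the 3 miR-669 probes had 0.82 to 0.86 and the 10 miR-466 probes 0.53 to 0.89 in late GN against control. Late GN was also above control in the listing of the cluster alone: 36, 40 and 31 of its 59 probes were listed in late GN, 10, 13 and 35 in early GN and 20, 22 and 23 in control. Late GN and control stood apart over all probes too, with 61.1 to 66.5% listed in late GN and 51.8 to 52.4% in control.

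A fit of the background-corrected scanner signal gave a value to every member, listed or not. After normexp with an offset of 50 and quantile normalization over all 1135 probes, the median log2 fold change of the 72 members was 0.020 in late GN against control, and 45 of 72 were above 0, against 570 of 1135. The offset holds dim probes near 0. miR-466h-3p was higher at 0.28 ± 0.072 (adjusted p = 0.0355) and miR-467h passed in the lower direction (adjusted p = 0.0467), and the backgrounds were 5.81% higher and 5.55% lower. miR-467h is the UG-rich chromosome 9 member listed on 1 late GN array and on all 3 control arrays. Its scanner signal was under the blank mean plus 2 SD on all 3 late GN arrays, so no fold change is given for it. No member passed in early GN against control or in late GN against early GN, where the medians were -0.011 and 0.029. Of the 1135 probes, 1.15% were higher and 0.969% lower in early GN against control, and 0 passed between late GN and early GN.

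Values of miRNAs associated with each cell type are given as a description. They cannot show the glomerular origin of the RNA, since the arrays hold no other tissue. All 6 podocyte-associated, 2 endothelial and 4 mesangial and smooth muscle miRNAs were listed on all 9 arrays. Their summed intensity in late GN was 41169 to 46010, 15470 to 20716 and 7311 to 8872, in early GN 27895 to 66723, 10090 to 21872 and 4357 to 9628, and in control 62894 to 69383, 24616 to 27460 and 9576 to 10706. Other cells were represented too. The 5 leukocyte miRNAs, of which 4 were listed on all arrays, summed to 375 to 554 in late GN, 93.9 to 404 in early GN and 223 to 275 in control, and miR-155 was blank on early GN arrays 1 and 2. The 4 tubule miRNAs summed to 1073 to 1274, 367 to 1073 and 786 to 1142 in the same order, and the 3 red blood cell miRNAs to 461 to 714, 214 to 828 and 868 to 983, with miR-215 listed on 2 arrays and miR-144 on 3. The sums hide differences within a list. miR-223, miR-142-3p, miR-142-5p and miR-155 were higher in every late GN than every control array. miR-150 was not, with 64.8, 40.9 and 54.8 in late GN and 67.6, 54.1 and 65.8 in control. Of the tubule list, miR-204 was lower in every late GN than every control array while miR-192 was higher. In the mesangial list miR-214 was higher although the sum was lower. Whether the leukocyte sum, which was higher in every late GN than every control array, has a part in the members' levels was not tested. In RNA of whole glomeruli, fewer cells of a type and less RNA per cell cannot be told apart. The scanner gain was 35 on all arrays but early GN array 1 and late GN array 2 (36) and late GN array 3 (37). On the arrays at gain 35, an alternative chosen after the data were seen, all 14 members were above 0 in late GN against control, with a median of 0.74 from 1 late GN array.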

How the data were processed

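Deposited values were fluorescence intensity on a linear scale, which the authors made with the 3D-Gene Scanner and Extraction software (versions not given in the sources used here) and global normalization. Against the deposited scanner intensity, listed values match spot medians less the mean of the blank spots, multiplied by 1 factor per array (1.10 to 2.34), with a median difference of 1.65 in spot intensity for the dimmer values. The labels and the methods name different Hy5 labelling kits. Members were found by name in the scanner files and joined by identifier. limma 3.58.1 in R 4.3.3 was run on log2 values of the 411 probes listed on all 9 arrays (all groups together, 6 residual degrees of freedom, 2-sided, Benjamini-Hochberg over the 411), after checks on simulated data. Under the deposited scaling limma pooled the spread over the probes, so its p-values do not rest on these degrees of freedom alone. Shifts of a whole array, which the probes share, enter that spread as if probes were independent. The number of arrays limits the precision, and nothing gives the spread of repeat arrays of a mouse. Alternatives were other scalings, filters, blocks, weights, tests (Dunnett's with mvtnorm 1.3.3) and leaving out each array. Named members are the 12 brightest listed on all arrays, those that passed, the 3 largest and 3 smallest fold changes of each comparison, and those listed on all arrays of a group and none of another. Members, lists and tests were chosen with earlier results of these data known. Plots were drawn with matplotlib 3.10.9 in Python 3.11.15. Sequences and positions are from RefSeq, GRCm38.p6.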

Additional observations from a re-analysis of the deposited data

How the results depend on the processing

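In late GN against control, the median of the members fitted stayed above 0 and above that of all probes in every alternative, and the number of members that were higher, 0 in the fit of all 9 arrays, was 5 with a common median (132 of all 411 probes), 3 with spike controls (127), 3 with the 75th percentile of probes listed on all arrays (102), 1 with normexp and quantile (where 1 was lower and the median was 0.020), 13 in a fit of the 2 groups (200), 13 with array weights (200; their iteration stopped before its tolerance), 11 and 9 by the methods' t-test before and after adjustment (183 and 156), and 13 without early GN replicates 1 and 2 (200), where the lone early GN array adds nothing to the spread. Leaving out 1 array gave 0 to 8 members higher (3 of 14 with 130 of 411 probes without early GN replicate 1, 8 of 14 with 172 of 411 without early GN replicate 3), and medians of 0.66 to 0.81. In early GN against control, leaving out 1 array gave 0 to 6 lower (6 with 232 of 411 probes, without early GN replicate 3) and medians of -0.61 to 0.33. Without early GN replicates 1 and 2, where the lone array, kept after the data were seen, is assumed to vary like the other groups, 5 were higher (123 of 411 probes), the median was 0.70, and miR-466f-3p (0.88), miR-669c* (0.81) and miR-669f-5p (0.83), negative with all arrays, were positive. Nothing is read from these calls, since 1 array has no spread of its own. In late GN against early GN the median was 0.18 with a common median, 0.029 with normexp and quantile, 0.052 with the 75th percentile of all probes and 0.049 without early GN replicates 1 and 2. There 13 members were higher with array weights (270 of 411 probes), and leaving out 1 array gave 0 to 14 higher (14 with 376 of 411, without early GN replicate 3) and medians of 0.41 to 1.34. The mean number of members per array in late GN, early GN and control was 46, 26 and 31.7 as listed, 31, 17 and 20.7 above 2 blank SD, 14.7, 7.33 and 7.33 above 5 blank SD, and 35.7, 19.3 and 21.7 for the cluster alone. Leaving out 1 array gave 44 to 49, 17.5 to 32 and 30.5 to 33. The cause of these changes was not tested. Of the members' single fold changes, 3 of 377 in late GN against control, 91 of 377 in early GN against control and 15 of 363 in late GN against early GN changed sign with no call on either side. Equal replicate numbers did not mark paired arrays (correlations of deviations -0.22 to 0.34). With replicate number as a block 0 members passed in any comparison, with medians of 0.76, -0.12 and 0.88. Of the 411 probes, 15 were higher and 1 lower, 1 higher and 0 lower, and 5 higher and 0 lower, in the same order.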
